A study of Mus musculus with 2 samples.

Results

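The *Crhbp En1* group is a set of inhibitory neurons of the mouse ventral parafacial region, chosen on measured values: 64 of 457 inhibitory neurons, and of 14008 cell barcodes in all. A barcode counted as an inhibitory neuron when it had at least 800 genes, at most 50 hemoglobin UMIs (unique molecular identifiers, each standing for 1 captured RNA molecule), at most 20% mitochondrial UMIs, at least 1 UMI of *Slc32a1* and at least 2 UMIs over *Gad1*, *Gad2* and *Slc6a5*. Each of these neurons received 5 sums of UMIs, over sets of 3 to 5 genes that separate inhibitory groups, 18 genes in all. A member had at least 2 UMIs over *Crhbp*, *En1*, *Gata3*, *Ndnf* and *Satb1*, and this sum was larger than each of the other 4 sums. Since the members were selected on these UMIs, the levels of the 5 genes in them describe the choice and are not findings.

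The study profiled single cells of this brainstem region, which lies near the chemosensitive neurons of the retrotrapezoid nucleus, with 10X Genomics droplet libraries. One library came from untreated wild-type C57BL/6J mice and the other from wild-type C57BL/6J mice given 4OH-tamoxifen, the active form of the drug that switches on tamoxifen-dependent Cre enzymes, at 0.2 mg per day for 3 days. Each library pooled 8 mice that were 10 days old, 4 male and 4 female. Each library was also a batch of its own, so treatment, batch and mice cannot be told apart, and no test between conditions could be made. The values therefore stand side by side for both libraries, with exact 95% intervals that cover counting error only.

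Inhibitory neurons of the hindbrain load GABA, glycine or both into synaptic vesicles through the transporter encoded by *Slc32a1*. GABA is made by the decarboxylases encoded by *Gad1* and *Gad2*, and the transporter encoded by *Slc6a5* supplies glycine to the nerve terminal. In the embryonic hindbrain and spinal cord, the homeodomain factor En1 marks a ventral class of inhibitory interneurons, and the zinc finger factor Gata3 marks another, formed with Tal1 and Gata2. Crhbp binds corticotropin-releasing hormone outside cells, Ndnf is a secreted neurotrophic factor, and Satb1 organises chromatin in several kinds of interneuron.

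The group held 8 of 94 untreated inhibitory neurons, 8.51% (exact binomial interval 3.75 to 16.1%), and 56 of 363 in the 4OH-tamoxifen library, 15.4% (11.9 to 19.6%). These intervals overlap, and the share over both libraries was 14.0% (11.0 to 17.5%). The members had a median of 7238.5 UMIs in the untreated library and 6014.5 in the 4OH-tamoxifen library, where the other inhibitory neurons had 8659.0 and 4169.0. By median the members were thus the shallower cells in the first library and the deeper ones in the second. Some shares of cells are therefore also given below after each cell was thinned to 2000 UMIs. Thinning leaves out 1 member and 16 of the 393 other inhibitory neurons. The deepest untreated member held 23481 of the 74163 UMIs of all 8, above the maximum of 19019 in the other untreated inhibitory neurons. It weighs on every summed untreated value, and it entered by 13 UMIs of *Ndnf* alone, with a next sum of 8. The libraries shared 40 barcodes, 1 of them carried by a member, and no barcode belonged to members of both libraries. A set of 923 microglia barcodes, with a median of 2986.0 UMIs, served as the measure of free RNA in the droplets.

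Among the genes of the rule, *Satb1* was found in 54 members (84.4%), *Ndnf* in 32 (50%), *En1* in 31 (48.4%), *Crhbp* in 24 (37.5%) and *Gata3* in 21 (32.8%). The sum of the 5 genes ran from 2 to 21 UMIs with a median of 5.00. Of the 64 members, 9 sat at the minimum of 2 UMIs, 35 had 5 or more, and in 6 the sum exceeded the next one by 1 UMI. Just outside the rule were 8 neurons in which the sum was the largest but reached 1 UMI, and 8 more in which it tied with another sum. A further 21 neurons had 2 UMIs or more of the 5 genes, at most 4, but more of another set.

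The label fits part of the members. *Crhbp* or *En1* was present in 40 members, and 24 had neither. The untreated library held 1 UMI of *Crhbp* in its 8 members, against 55 UMIs in 23 of the 56 members of the 4OH-tamoxifen library. Only 3 members held all 5 genes, 24 held 2 and 13 held 1, which was *Satb1* in 6 of them. Outside the group *Crhbp* was found in 2 of 393 inhibitory neurons, *En1* in 3, *Gata3* in 4 and *Ndnf* in 22, but *Satb1* in 84 (21.4%). In GRCm38 coordinates, *Crhbp* lies on chromosome 13 (95431371 to 95444924, minus strand) and *En1* on chromosome 1 (120602418 to 120607992, plus strand). *Gata3* lies on chromosome 2 (9857078 to 9890034), *Ndnf* on chromosome 6 (65671590 to 65712326) and *Satb1* on chromosome 17 (51736187 to 51833290).

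**Figure D1:**
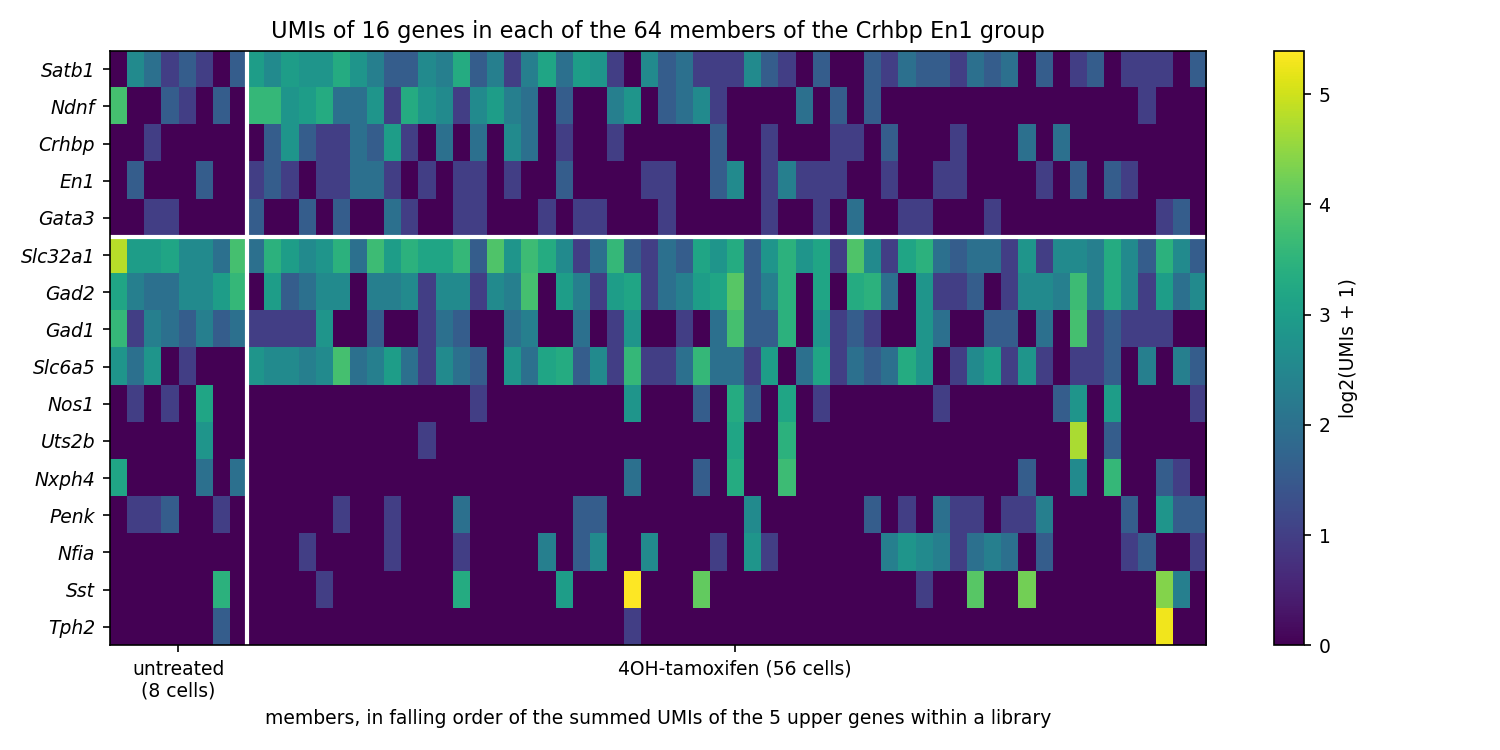
UMIs, as log2(UMIs + 1), of 16 genes (rows) in each of the 64 members (columns), the 8 untreated ones to the left of the white line and the 56 of the 4OH-tamoxifen library to the right, ordered by the sum of the upper 5 genes, which chose the cells. *Satb1* runs through 54 members, *Ndnf* fades to the right, and a few columns hold *Nos1*, *Uts2b* and *Nxph4* together.

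Genes outside the rule placed most members together. When the 457 inhibitory neurons were clustered on 977 variable genes, without the 18 genes of the rule, 60 of 64 members (93.8%, 84.8 to 98.3%) fell in 1 of 5 clusters, 7 of 8 in the untreated and 53 of 56 in the 4OH-tamoxifen library. That cluster had 130 cells, so members were 46.2% of it. Its other 70 cells were 47 neurons in no group, 16 of the *Cck Tfap2b* group, 5 of the *Tac2 Tacr3* group and 2 of the *Fst Gpc4* group, and 49 of the 70 had no UMI of the 5 genes. The non-members there had a median of 4390.5 UMIs, below the 6155.5 of the members beside them. Of the 4 remaining members, 2 lay in a cluster of 23 cells led by oligodendrocyte genes (*Mag* and *Cldn11* among them), and 1 each in the clusters that held most of the *C1ql2 Prox1* and *Cck Tfap2b* cells.

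**Figure D2:**
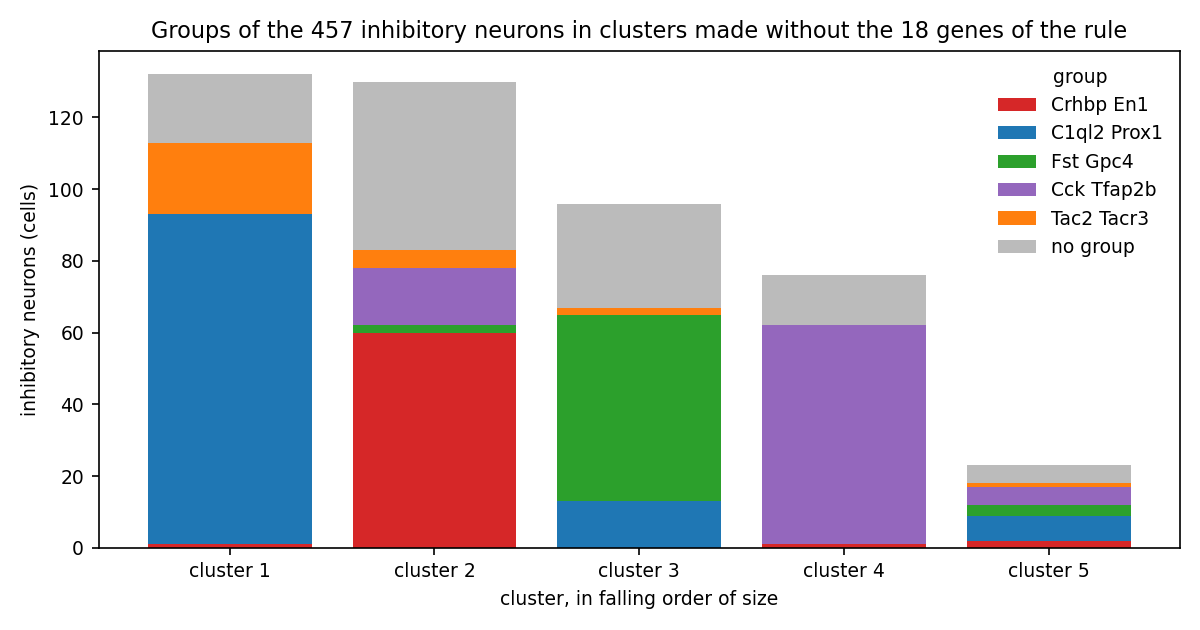
Number of inhibitory neurons (y axis, from 0) in each of 5 clusters (x axis), coloured by group. The red segment of 60 members sits in cluster 2 beside 47 cells of no group, while cluster 1 is mostly *C1ql2 Prox1*, cluster 3 *Fst Gpc4* and cluster 4 *Cck Tfap2b*.

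Genes of other cells were also counted in the members. The summed UMIs of 5 neuronal genes ran from 4 to 124 per member, with a median of 25.0. *Slc17a6* and *Slc17a7*, which encode the main vesicular glutamate transporters, had 0 UMIs in all 64, and *Slc17a8* had 5 UMIs in 3. The 5 marker genes of retrotrapezoid neurons, the chemosensory cells of this region, summed to 20 UMIs in 12 members, at most 6 in a cell, which is 46.1 CPM against 47.2 CPM in the other inhibitory neurons. In the untreated library the sums were 80.9 against 45.4 CPM, from 6 UMIs in the members, and in the 4OH-tamoxifen library 38.9 against 48.2 CPM. Of the 5 genes only *Kcnk5*, a proton-sensitive potassium channel, was at 0 in all members. *Dbh* and *Slc6a2* of noradrenergic cells were also at 0. Oligodendrocyte RNA was found in all 64 members, as 9 to 755 UMIs of 7 genes. The median of 30.0 UMIs equalled the 30.0 of the other inhibitory neurons. In CPM the members were lower, at 4288 against 6214 untreated and 7383 against 11454 in the 4OH-tamoxifen library. The members in the oligodendrocyte-led cluster were the ones with 755 and 198. The 7 astrocyte genes were found in 62 members and summed to at most 44 UMIs, and the 7 microglia genes to at most 5. The 5 cholinergic genes summed to 0 to 14 UMIs, and the 8 monoaminergic genes to 0 to 85, with the 85 in 1 member described below. How much these RNAs add to the values below was not tested.

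Genes for both GABA and glycine met in many members, with unlike shares in the libraries. *Gad1* or *Gad2* occurred together with *Slc6a5* in 4 of 8 untreated members (15.7 to 84.3%) and in 54 of 86 other untreated inhibitory neurons (62.8%, 51.7 to 73.0%). In the 4OH-tamoxifen library they met in 46 of 56 members (82.1%, 69.6 to 91.1%) and in 193 of 307 other neurons (62.9%, 57.2 to 68.3%). The higher share in members was thus seen in that library alone. There the members were also the deeper cells, with medians of 6014.5 against 4169.0 UMIs, and these shares are before thinning. *Slc6a5* without either decarboxylase was seen in 4 members and 7 other neurons. The rule asks for 2 UMIs over these 3 genes in members and other neurons alike, so it does not set their balance.

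*Slc6a5* gave different values in the libraries. It was found in 4 of 8 untreated members, at 216 CPM (UMIs summed over cells, per 1000000 UMIs of those cells) against 274 CPM in the other inhibitory neurons, a ratio of 0.788 (0.442 to 1.31). In the 4OH-tamoxifen library it was found in 50 of 56 members, at 586 against 317 CPM, a ratio of 1.85 (1.56 to 2.18). The higher level in members was thus seen in 1 library, and the interval of the other spans 1. After thinning, 57.1% of members and 41.1% of other inhibitory neurons held *Slc6a5*, against 0.758% of unthinned microglia.

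*Gad1* was lower in members of both libraries. It stood at 405 against 729 CPM in the untreated library, a ratio of 0.555 (0.371 to 0.802), and at 308 against 560 CPM in the 4OH-tamoxifen library, a ratio of 0.551 (0.447 to 0.673). *Gad2* showed a smaller difference of the same direction, 620 against 916 CPM and 697 against 903 CPM. *Slc32a1* was nearly level, with ratios of 1.03 (0.803 to 1.31) and 1.10 (0.972 to 1.25). After thinning, *Gad1* was found in 38.1% of members and 66.3% of other inhibitory neurons. *Gad2* without *Gad1* was found in 17 members (26.6%), all in the 4OH-tamoxifen library, and in 10.9% of the other neurons of both libraries. Within the 4OH-tamoxifen library the shares were 30.4% and 13.7%, and untreated it was 0 of 8 members and 1 of 86 other neurons.

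*Sst*, which encodes somatostatin and is common in the other inhibitory neurons, was rare here. It was present in 11 of 64 members (17.2%, 8.90 to 28.7%), 1 untreated and 10 in the 4OH-tamoxifen library, and in 47.6% of the other inhibitory neurons. With at most 10% mitochondrial UMIs it was in 2 of 27 members (7.41%, 0.910 to 24.3%). The summed level was 135 against 1430 CPM untreated, a ratio of 0.0943 (0.0451 to 0.174), and 367 against 1007 CPM in the 4OH-tamoxifen library, a ratio of 0.364 (0.302 to 0.436). Where *Sst* was present it ran from 1 to 41 UMIs per member, and 1 member gave 28.9% of all its UMIs. *Pnoc*, the precursor of the opioid-like peptide nociceptin, was also lower, at 391 against 589 CPM and 156 against 405 CPM. *Lamp5*, a membrane protein of inhibitory synapses in the hindbrain, was at a like level in members and others, 87.5% against 85.8% of cells.

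The comparison across all genes asked which ones set the members apart from the other inhibitory neurons in each library. Of 9365 genes with at least 20 UMIs, after the 18 rule genes were left out, 26 (0.278%) were at least 2-fold higher in members of both libraries and 102 (1.09%) at least 2-fold lower, with 10 CPM added to both sides. With 8 cells the untreated library alone passed 466 genes up and 1618 down, against 91 and 248 in the 4OH-tamoxifen library. The median log2 ratio over all genes was -0.10 and -0.02. Of the 26 higher genes, 24 were found in 2 or more untreated members, though some, such as *Gfra1*, *Pde1a*, *Hapln1* and *Fstl1*, in 2 only. Of the 102 lower genes, 72 had 0 UMIs in the untreated members, and for 56 the other untreated inhibitory neurons also lay below the level of 3 UMIs in those members (40.5 CPM), so that the untreated side of these calls is within counting error. Without the 4 members outside the main cluster, a choice made after seeing the data, 31 genes were higher and 129 lower. Both counts moved with the settings. With at most 10% mitochondrial UMIs 22 genes were higher and 276 lower. That limit left 1 untreated member, at 9.69%, so the untreated side of those counts is 1 cell. With groups set on thinned cells the counts were 40 and 363, and with 1 CPM added in place of 10 CPM 64 and 339.

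The 15 genes that led the higher set were *Dlk1*, *Gfra1*, *Cbln4*, *Penk*, *Pde1a*, *Diras2*, *Hapln1*, *Nos1*, *Cdh22*, *Fstl1*, *Klhl1*, *Tph2*, *Nxph1*, *Rmst* and *Lrrc75b*. *Gfra1*, a co-receptor for glial cell line-derived neurotrophic factor, was found in 27 members (42.2%) and 4.58% of other inhibitory neurons. Its level was 53.9 against 2.75 CPM in the untreated library, a ratio of 19.6 (2.81 to 217) that came from 2 members. In the 4OH-tamoxifen library it was 139 against 12.8 CPM, a ratio of 10.9 (6.24 to 19.8). No single member gave more than 9.26% of its UMIs. *Dlk1*, which encodes a Notch-like membrane protein, had ratios of 14.0 (4.81 to 43.3) and 10.3 (5.01 to 22.9), but it rested on 10 members, 1 of which gave 43.6% of the UMIs.

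The higher genes also included *Cbln4*, *Cdh22*, *Nxph1* and *Hapln1*. *Cbln4*, a secreted organiser of synapses, stood at 148 against 27.5 CPM untreated and 122 against 27.6 CPM in the 4OH-tamoxifen library. *Cdh22*, a cadherin, was found in 34 members (53.1%) against 11.5% of other neurons, with ratios of 2.86 (1.04 to 6.84) and 5.12 (3.25 to 8.13). *Nxph1*, a ligand of neurexins, was also found in 34 members, with ratios of 9.41 (5.15 to 17.2) and 2.52 (1.79 to 3.51). *Hapln1*, a link protein of perineuronal nets, had ratios of 29.4 (7.34 to 169), from 2 untreated members, and 2.96 (1.84 to 4.73). It was the only gene of 8 tested on the perineuronal net list to be higher in both libraries, with 0 lower, beside 0.278% higher and 1.09% lower among all genes tested. That list had median log2 ratios of -0.82 and -0.56. Over the list of adhesion and guidance genes, 2 of 52 tested genes (*Nxph1* and *Cbln4*) were higher in both libraries and 2 (*Epha7* and *Plxna2*) lower, beside the same shares of 0.278% and 1.09%. The list's median log2 ratios were -0.00 and 0.02.

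*Penk*, the precursor of enkephalin peptides, was found in 22 members (34.4%), 4 untreated and 18 in the 4OH-tamoxifen library, against 5.60% of other inhibitory neurons and 0.542% of microglia. Its level was 67.4 against 6.88 CPM and 111 against 27.6 CPM, with ratios of 9.80 (2.26 to 42.6) and 4.02 (2.52 to 6.42). After thinning it was in 15.9% of members and 2.92% of the others. Of the 14 neuropeptide genes tested, *Penk* was the only one at least 2-fold higher in both libraries and *Sst* the only one at least 2-fold lower, beside 0.278% and 1.09% of all genes tested. *Calca* was not on that list. The calcium buffer gene *Calb2* was higher in both libraries too, at 67.4 against 26.1 CPM and 50 against 13.5 CPM, but in 9 members.

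**Figure D3:**
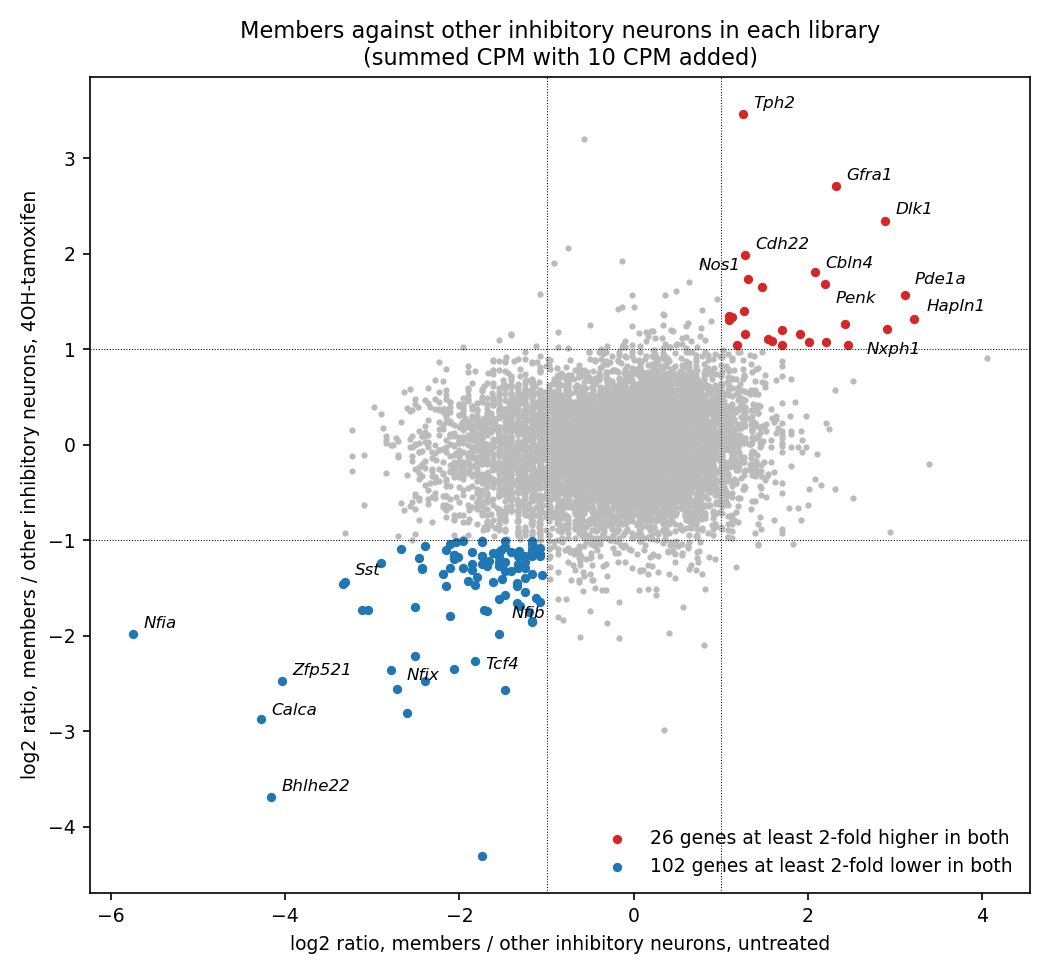
Log2 ratio of summed CPM (10 CPM added) between members and other inhibitory neurons for 9365 genes, in the untreated library (x axis, 8 against 86 cells) and the 4OH-tamoxifen library (y axis, 56 against 307 cells). Red marks the 26 genes at least 2-fold higher in both and blue the 102 at least 2-fold lower, with *Gfra1* and *Dlk1* among the former and *Bhlhe22* and *Calca* among the latter, and dotted lines mark 2-fold.

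The 10 lowest genes were *Bhlhe22*, *Calca*, *Skor1*, *Nfix*, *Zfp521*, *Neurod2*, *Neurod1*, *Kctd12*, *Mal* and *Nfia*. *Mal* is among the leading genes of the oligodendrocyte-led cluster, and the oligodendrocyte genes too were lower in members of both libraries in CPM. *Bhlhe22*, a basic helix-loop-helix factor of several interneuron classes, had 1 UMI in the 64 members, against 160 CPM in the other inhibitory neurons, where 39.2% of cells held it. The ratio was 0 (at most 0.298) in the untreated library and 0.0180 (0.000453 to 0.101) in the 4OH-tamoxifen library. *Skor1*, *Neurod1* and *Neurod2*, factors of dorsal and differentiating neurons, had 0 UMIs in the members. Against the floor of 3 UMIs over all members (6.91 CPM), they were at least 8.26-fold, 6.84-fold and 6.43-fold lower than in the other inhibitory neurons. *Calca*, which encodes calcitonin gene-related peptide, was likewise at 0 and at least 15.1-fold lower.

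The nuclear factor I genes, regulators of late-born neurons and of glia, were lower together. *Nfix* was at 27.0 against 234 CPM in the untreated library and 33.3 against 245 CPM in the 4OH-tamoxifen library, with ratios of 0.115 (0.0139 to 0.423) and 0.136 (0.0698 to 0.241). *Nfib* had ratios of 0.312 (0.100 to 0.744) and 0.302 (0.201 to 0.438). *Nfia* had 0 UMIs in the 8 untreated members, against 527 CPM in the neurons beside them, and 175 against 722 CPM in the 4OH-tamoxifen library, a ratio of 0.243 (0.185 to 0.313). Over both libraries *Nfia* was in 34.4% of members, 68.7% of other inhibitory neurons and 32.6% of microglia. *Tcf4* and *Zfp521* were also lower, with ratios of 0.186 (0.117 to 0.282) and 0.113 (0.0363 to 0.270) in the 4OH-tamoxifen library. After thinning, *Nfix* was in 6.35% of members and 32.9% of other neurons, and *Tcf4* in 15.9% and 40.3%. Of 25 tested genes on the list of homeodomain and related factors, 5 were at least 2-fold lower in both libraries (*Lbx1*, *Nfia*, *Nfib*, *Nfix* and *Tcf4*) and 0 higher, beside 1.09% lower and 0.278% higher among all genes tested. *Lbx1* had 0 UMIs in the members and was at least 2.57-fold lower against the floor. The list's median log2 ratios were -0.62 and -0.20.

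The *Cck Tfap2b* group shared part of this profile. There *Bhlhe22*, *Neurod1* and *Neurod2* were at 0, *Nfia* at 52.0 CPM against 145 CPM in the members, and *Nfix* at 36.8 against 32.3 CPM. In the other 3 groups *Nfia* stood at 698 to 1027 CPM. The members differed from the *Cck Tfap2b* group in *Pax2*, *Lhx1* and *Sst*. *Pax2*, a paired-box factor of dorsal inhibitory neurons, was at 84.5 CPM in that group, and in the members it was confined to 5 UMIs of 1 untreated cell, with 0 in the 56 members of the 4OH-tamoxifen library, where 25.7% of other inhibitory neurons held it. *Lhx1*, a LIM homeodomain factor, stood at 91.0 CPM in the *Cck Tfap2b* group, 25.3 CPM in the members and 0 in the *C1ql2 Prox1*, *Fst Gpc4* and *Tac2 Tacr3* groups. *Sst* was at 0 in the *Cck Tfap2b* group.

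**Figure D4:**
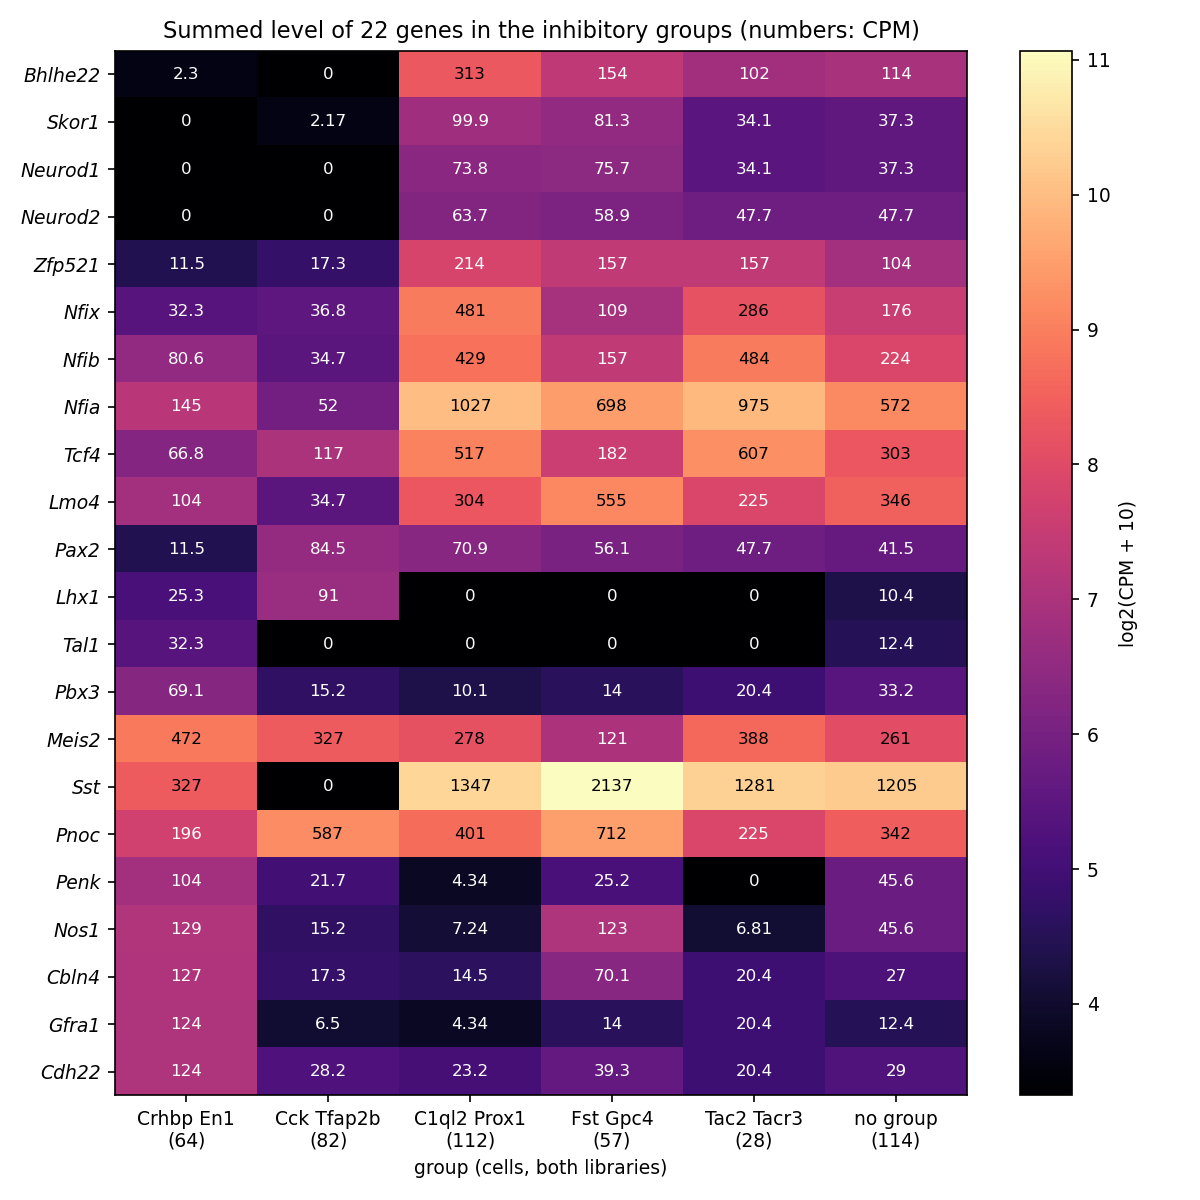
Summed level of 22 genes (rows) in the 5 groups and in the inhibitory neurons of no group (columns, cells of both libraries in brackets), with the CPM printed in each field and the colour as log2(CPM + 10). The members and the *Cck Tfap2b* group are dark for *Bhlhe22*, *Skor1*, *Neurod1* and *Neurod2*, and the members alone exceed 100 CPM for *Penk*, *Cbln4*, *Gfra1* and *Cdh22*.

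Genes known from the *En1* and *Gata3* lineages were sparse. Of 11 *En1*-lineage genes, 3 had enough UMIs to be compared and 0 were 2-fold apart in both libraries, which says little in 3 genes where 0.278% of all genes tested were higher and 1.09% lower. *Foxd3*, *Otp* and *Sp8* had 0 UMIs in the members, *Foxp2* was found in 2 and *Calb1* in 5. Of the *Gata3*-lineage genes, *Tal1* was found in 11 members (17.2%), 2 of 8 untreated and 9 of 56 in the 4OH-tamoxifen library, against 4 cells (1.02%) of the other inhibitory neurons and 5.20% of microglia. *Gata2* was in 3 members, and *Sox14* had 0 UMIs. Of 4 genes tested on that list, 2 (*Lmo4* and *Bhlhe22*) were lower in both libraries and 0 higher, beside the same shares of all genes, and 4 genes are too few to describe the list. *Meis2* and *Pbx3*, homeodomain partners of Hox proteins, were higher in the 4OH-tamoxifen library, with ratios of 1.89 (1.58 to 2.26) and 3.92 (2.28 to 6.73), but the untreated members gave 1.10 (0.662 to 1.72) for *Meis2* and no UMI of *Pbx3*.

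Receptors and channels were compared list by list, beside shares of 0.278% higher and 1.09% lower among all genes tested. Of 33 sodium and potassium channel genes and 15 calcium and pacemaker channel genes tested, 0 passed 2-fold in both libraries in either direction, as did 0 of 10 subunits of GABA-A receptors. At those shares, lists of this length would hold few or no such genes. Of 19 glutamate receptor genes *Grik4* was lower in both, and *Grm5* stood at 337 against 237 CPM and 514 against 242 CPM. Among 10 monoamine and acetylcholine receptor genes *Adra1b* was higher and *Htr7* lower. *Adra2c* passed as lower with 0 UMIs in the members, but against the floor of 3 UMIs it was at least 1.69-fold lower, short of 2-fold. Among 6 peptide receptor genes *Ntsr2* and *Crhr1* were lower. *Crhr1*, a receptor for corticotropin-releasing hormone, was in 1 member and 12.2% of other inhibitory neurons, and *Crh* itself was in 1 member. Of 13 proton sensor and acid-sensitive genes tested, *Car10* was lower in both libraries and 0 were higher. *Oprl1*, the receptor for nociceptin, was in 39 members (60.9%) against 32.1% of others before thinning, below 2-fold in level.

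The members were not uniform. *En1* and *Gata3* divided them into 23 with *En1* alone (2 untreated, 21 in the 4OH-tamoxifen library), 13 with *Gata3* alone (2 and 11), 8 with both (0 and 8) and 20 with neither (4 and 16). Where present, each gene had a median of 1.00 UMI per member, with at most 5 of *En1* and 3 of *Gata3*, so a member without a UMI may still express it. The subset with *En1* alone had a median of 5964.0 UMIs and that with *Gata3* alone 7142.0. The 8 genes highest with *En1* against *Gata3* were *Uts2b*, *Nos1*, *Dgkk*, *Ret*, *Mog*, *Gsn*, *Mag* and *Nxph4*. *Mog*, *Gsn* and *Mag* are oligodendrocyte genes, and the member with 755 oligodendrocyte UMIs is in the *En1* subset.

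*Uts2b*, which encodes a vasoactive peptide related to urotensin, had 52 UMIs in 6 members with *En1* and 0 UMIs in all members without it. In 5 of these 6 cells *Crhbp*, *Gata3* and *Ndnf* had 0 UMIs and *Satb1* at most 1, so they were members mainly through *En1* and its link with *Uts2b* is in part set by the rule. *Nos1*, the neuronal nitric oxide synthase, had 40 UMIs in 7 of the 23 members with *En1* alone and 1 UMI in 1 of the 13 with *Gata3* alone. These UMIs sat in few cells. A set of 6 members, 1 untreated and 5 in the 4OH-tamoxifen library, held 6 to 9 *Nos1* UMIs each, and this set was picked after its values were seen, so it is described and not tested. It held 44 of the 56 *Nos1* UMIs of the group and 51 of the 52 *Uts2b* UMIs. *En1* and *Uts2b* were each present in 5 of the 6 cells, *Gad1* in 6 at 2 to 13 UMIs, *Nxph4* in 6 at 3 to 12 UMIs, and the receptor tyrosine kinase gene *Ret* in 5. One of the 6 is the member with 755 oligodendrocyte UMIs, and it gave 10 of the 51 *Uts2b*, 13 of the 37 *Ret* and 12 of the 43 *Nxph4* UMIs. *Crhbp*, *Gata3*, *Chat* and *Penk* had 0 UMIs there, and *Ndnf* was in 1 cell. In the other 58 members *Gad1* stood at 251 CPM against 760 CPM in these 6, and *Slc6a5* at 566 against 269 CPM. Of the 17 *Slc6a5* UMIs in these 6 cells, 11 came from 1 cell, which was also the one without *En1*, *Uts2b* and *Ret*, with 41 *Sst* and 6 *Ndnf* UMIs. Outside the group, 2 inhibitory neurons had 6 or more *Nos1* UMIs, both in the *Fst Gpc4* group, where *Uts2b* stood at 236 CPM.

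The genes highest with *Gata3* against *En1* included *Tph2*, *Ddc*, *Pam*, *Timp3*, *Arpp21*, *Coro6* and *Syt2*. *Tph2*, the enzyme of serotonin synthesis in neurons, owed its place in this set to 1 cell of the 4OH-tamoxifen library. That member held 38 of the 41 *Tph2* UMIs, with 13 UMIs of the serotonin transporter gene *Slc6a4*, 1 of *Fev*, 19 of *Ddc* and 20 of *Sst*, beside 10 of *Slc32a1*, 7 of *Gad2* and 0 of *Slc6a5*. Its *Gata3* and *Satb1* counts were 1 UMI each, which is the least the rule admits. No other member had *Slc6a4* or *Fev*. The place of *Tph2* among the 15 highest genes also rested on 2 UMIs in 1 untreated member, which gave its smaller log2 ratio of 1.25.

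The members were also divided by *Ndnf*, a gene of the rule. Of the 32 members with *Ndnf*, 5 (15.6%) held *Nfia* and 6 (18.8%) *Penk*, and of the 32 without it 17 (53.1%) held *Nfia* and 16 (50%) *Penk*. Both sets had like depth, with medians of 6272.0 and 5844.0 UMIs. *Slc6a5* was found in 29 members with *Ndnf* and 25 without. *Chat*, which encodes the enzyme of acetylcholine synthesis, was found in 7 members with *Ndnf* and 1 without, at 11 UMIs in all. Members without *Ndnf* had to enter through the other genes of their set, so this split is in part set by the rule. By *Satb1*, *Nfia* was in 22 of 54 members with it and 0 of 10 without, and *Penk* in 19 and 3. The *Ndnf* split was noticed in the data and is given as counts only.

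Within the members, the libraries were compared over 4154 genes with at least 20 UMIs. At least 2-fold higher in the untreated library were 157 genes (3.78%), and 453 (10.9%) were higher in the 4OH-tamoxifen library. The 8 untreated members gave 74163 UMIs and the other 56 gave 359886, so 3 UMIs amount to 40.5 CPM in the former and 8.34 CPM in the latter. *Tmem255a*, *Gm26737*, *Tac1*, *Fam131c* and *Apoo* were the 5 highest untreated, and *Tac1*, the precursor of substance P, came from 15 UMIs in 2 untreated members against 7 UMIs in 2 members of the other library. *Nfia*, *Sema6a*, *Wdr26*, *Mag* and *Mbd3* were the 5 highest in the 4OH-tamoxifen library. *Mag* is an oligodendrocyte gene, and the members with 755 and 198 oligodendrocyte UMIs are both in that library. *Sema6a*, a semaphorin, was in 25 of 56 members there and in 0 of 8 untreated ones. With 1 library per condition these differences cannot be assigned to the treatment.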

How the data were processed

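Per the labels and the study's methods, the authors converted base calls with bcl2fastq 2.18.0.12 and counted UMIs with Cell Ranger 2.2.0 on the 10X mm10 (GRCm38) reference. The deposited values are raw counts of UMIs per gene and called barcode, not normalized, with doublets and poor cells still included, for 3767 untreated and 10241 4OH-tamoxifen barcodes (18496942 and 34704167 UMIs). Of these, 3345 and 9050 passed the filters on genes, hemoglobin and mitochondrial UMIs. Gene coordinates were matched by Ensembl identifier to GENCODE M21, and *Rmst* had no match.

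The members, the gene lists and the alternatives were chosen with earlier results of these data known. Counts were summed over cells of a library and divided by their total (CPM), with exact Poisson intervals, exact conditional intervals for ratios and exact binomial (Clopper-Pearson) intervals for shares, at 95%. Fold counts used 10 CPM added to both sides and genes with at least 20 UMIs in members or in the others (over members, between libraries), without mitochondrial, ribosomal protein, *Xist* and Y genes. Named are the rule genes, genes of the lists, the 15 highest and 10 lowest genes by the smaller log2 ratio of the 2 libraries, the 8 highest in each direction between *En1* and *Gata3* subsets, and the 5 highest in each direction between libraries. Some genes that these rules name are not reported here. The *Nos1* set and the *Ndnf* split came after values were seen. Clustering used scanpy 1.11.5 and leidenalg 0.10.2 (25 components, 8 neighbours per library, resolution 0.7) without the 18 rule genes. Microglia barcodes had at least 20 UMIs of 7 microglia genes and 0 of *Snap25*. Doublets were kept in the main analysis. The fold calls and intervals were tested on simulated data. Cells are not replicates, so no test was made.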

Additional observations from a re-analysis of the deposited data

How the results depend on the processing

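No paired analysis was possible because each condition has 1 library. Of 96 values under alternatives to the 8 main ones, 76 stayed within the main 95% interval (shares) or within 1.5 times the main count. With at most 10% mitochondrial UMIs there were 27 members, 276 genes lower in both libraries, a share with *Sst* of 7.41%, and 100% of members in 1 cluster. Only 1 of these 27 members was untreated, so the 276 genes rest on 1 untreated cell. With groups set after thinning to 2000 UMIs there were 36 members (8.18% of inhibitory neurons), 40 genes higher and 363 lower, and again 100% in 1 cluster. Without *Satb1* in the sum the share of members was 9.41% and 181 genes were lower. With 1 CPM added, 64 genes were higher and 339 lower. With no minimum of UMIs, 43 genes were higher, and 2972 differed between libraries within members against 610. The share with *Slc6a5* was 65.6% at 2 UMIs or more and 57.1% after thinning. At a resolution of 1.4, 78.1% of members shared a cluster. Chosen after seeing the data were each library alone (untreated: share of members 8.51%, share with *Slc6a5* 50%) and the members of cluster 2 alone, which left 31 genes higher and 129 lower. Doublet calls by Scrublet fell on 6 untreated barcodes (0.159%), too few to call the removal effective there, on 544 barcodes (5.31%) of the other library, and on 2 members. The cause of these shifts was not tested. The 8 untreated members limit every statement on both libraries.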

Other observations

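Genes of axons, maturation and acetylcholine gave further values. *Nefh*, the heavy neurofilament of large axons, was found in 47 members (73.4%) and 45.0% of other inhibitory neurons before thinning. Its level had ratios of 2.49 (1.34 to 4.36) in the untreated library and 2.00 (1.65 to 2.43) in the 4OH-tamoxifen library before 10 CPM was added. It was spread unevenly, since 3 members held 23, 27 and 27 of the 178 UMIs. Of the 17 tested genes of neuron maturation 0 were 2-fold apart in both libraries, beside 0.278% higher and 1.09% lower among all genes tested, and the list's median log2 ratios were 0.31 and 0.20. The 7 immediate early genes and 4 Hox genes tested gave 0 as well, and lists this short say little at those shares. *Slc18a3*, the vesicular acetylcholine transporter, was in 16 members (25.0%) and 8.91% of other inhibitory neurons, and 11 of the 16 also had *En1*, while *Chat* was in 8. These shares are before thinning, with medians of 6252.0 UMIs in members and 4544.0 in the others, and free RNA as a source was not tested. The coordinates of *Slc18a3* lie within those of *Chat*, so reads of the genes may not be told apart. *Scn4b*, a sodium channel subunit, was in 10 members, all in the 4OH-tamoxifen library, against 2.29% of other inhibitory neurons.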
